A study of Homo sapiens with 8 samples.

Results

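Chaperones and folding enzymes of the endoplasmic reticulum (ER) were examined through 10 genes, HSPA5, HYOU1, SDF2L1, HSP90B1, CALR, CANX, PDIA3, PDIA4, PDIA6 and P4HB. They were chosen by symbol from the 23193 genes of the deposited tables, a rule that uses no measured value. The set was, however, proposed with earlier results of these data known. Nascent transcription was measured by PRO-seq, a run-on assay in which engaged RNA polymerases incorporate biotin-labelled nucleotides and the labelled RNA is sequenced. The cells were HCT116, an established human colorectal carcinoma line, either wild type (WT) or HIF1A-/-. HIF1A encodes the oxygen-regulated subunit of hypoxia-inducible factor 1. The HIF1A-/- cells are 1 line made by virus-mediated homologous recombination that disrupted internal exons, so genotype and line cannot be told apart. Each genotype was kept in normoxia (21% O2) or placed in hypoxia (1% O2) for 90 min, with 0.1% DMSO in every culture, and each of the 4 groups held 2 libraries. The comparisons ask how these genes responded to early hypoxia, and whether the response differed in cells without HIF1A.

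Secreted and membrane proteins fold in the ER with the help of Hsp70- and Hsp90-type chaperones, the lectin chaperones calnexin and calreticulin, and disulfide isomerases that form and rearrange disulfide bonds. When unfolded proteins accumulate, the sensors ATF6, IRE1 and PERK start the unfolded protein response, and ATF6 and spliced XBP1 activate many of these genes through ER stress response elements (ERSE) near their start sites. Disulfide bond formation uses oxygen, and prolonged severe hypoxia is known to engage parts of this response. After 90 min, PRO-seq reads the transcription of these genes and not the level of their proteins.

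The start-site sequences are shown first because they set out which genes carry an exact match to the classical element. Windows from 250 bases upstream to 50 bases downstream of each deposited transcription start site (TSS) were read from GRCh37 and searched on both strands. ERSE was searched as CCAAT and CCACG with any 9 bases between them, the related element ERSE-II as ATTGG and CCACG with any base between them, and the core of the XBP1-type unfolded protein response element as TGACG followed by TGG. ERSE occurred in 27 of 23193 windows (0.116%), among them those of HSPA5, HSP90B1, CALR and CANX. ERSE-II occurred in 13 windows (0.0561%), among them those of HYOU1 and SDF2L1. The following elements are printed with the fixed letters of ERSE and the whole of ERSE-II in capitals, and an antisense element is written on its own strand.
HSPA5, chr9:128003670-128003688, sense, 22 to 4 bases before the start: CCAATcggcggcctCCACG
HSP90B1, chr12:104323994-104324012, sense, 117 to 99 bases before the start: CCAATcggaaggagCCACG
HSP90B1, chr12:104324099-104324117, antisense, across the start: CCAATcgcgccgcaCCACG
CALR, chr19:13049198-13049216, antisense, 215 to 197 bases before the start: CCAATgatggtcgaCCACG
CANX, chr5:179125779-179125797, sense, 150 to 132 bases before the start: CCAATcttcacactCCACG
PDIA6, chr2:10952979-10952997, sense, 86 to 68 bases before an internal RefSeq start: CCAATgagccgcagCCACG
HYOU1, chr11:118928091-118928101, antisense, 144 to 134 bases before the start: ATTGGACCACG
HYOU1, chr11:118927985-118927995, antisense, 38 to 28 bases before the start: ATTGGACCACG
SDF2L1, chr22:21996403-21996413, antisense, 138 to 128 bases before the start: ATTGGTCCACG

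HSP90B1 held 2 ERSE matches, and only 2 of all windows (0.00862%) held 2 or more. The XBP1-type core was found in 180 windows (0.776%) and in 1 of the 10 genes, HYOU1, where it overlapped the distal ERSE-II. No exact match to ERSE or ERSE-II was found in the windows of PDIA3, PDIA4 and P4HB, nor at the deposited start of PDIA6. Variants with a differing base were not searched, so these windows are not shown to lack such an element. The letters CCAAT were in all 10 windows, against 35.5% of all windows. The core letters of the hypoxia response element, ACGTG, were in the windows of HSP90B1, PDIA4 and HYOU1 (22.5% of all windows), and both matches in HYOU1 overlapped its ERSE-II elements. The variant GCGTG was in 7 of the 10 windows (41.1% of all windows), overlapping ERSE in HSP90B1 and CALR and ERSE-II in SDF2L1. These counts are for the deposited starts. The window of the internal PDIA6 start with ERSE also held ACGTG (chr2:10952904-10952908) and GCGTG, neither overlapping that ERSE. These matches describe letters and do not show that a factor was bound. The last 150 bases before the starts of HSPA5 (chr9:128003667-128003816) and HYOU1 (chr11:118927958-118928107), both from GRCh37 and written 5′ to 3′ on the minus strand, along which both genes are transcribed, show the arrangement, with ERSE or ERSE-II in capitals.
HSPA5: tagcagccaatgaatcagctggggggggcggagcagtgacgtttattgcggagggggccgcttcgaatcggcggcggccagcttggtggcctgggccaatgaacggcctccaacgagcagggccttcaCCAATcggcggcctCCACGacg
HYOU1: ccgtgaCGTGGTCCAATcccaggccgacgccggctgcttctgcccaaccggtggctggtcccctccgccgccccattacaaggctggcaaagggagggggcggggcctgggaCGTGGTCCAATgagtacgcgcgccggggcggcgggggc

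Gene body totals ran from 18125234 to 23622392 counts per library and TSS region totals from 2783581 to 5966348 counts. Levels are given as CPM, the count scaled to a common library size after correction by the TMM factors of edgeR. HIF1A itself had 129.5 to 175 CPM over its gene body, and because the disruption lies in internal exons this does not test the genotype. All 7 colon epithelial markers were transcribed, with a summed level of 921 to 1292 CPM per library. The summed levels of 5 leukocyte, 5 fibroblast and 5 endothelial markers were at most 13.7, 57.0 and 37.4 CPM, with no marker at 0 in all libraries. All 4 marker sums, the colon epithelial one included, were higher in hypoxia in every replicate pair of both genotypes, and their part in the results was not tested. The fibroblast sum went from 31.8 and 39.2 CPM to 42.2 and 57.0 CPM in WT cells, and the endothelial sum from 14.6 and 24.2 CPM to 22.03 and 37.4 CPM. Libraries with the same replicate number deviated together from their group means, with Pearson r from 0.484 to 0.790 over the 6 pairs of groups at the gene body. Results are therefore given without the replicate number in the model and, where a call changes, with the number as a block. By the study's methods the duplicates were independent biological samples, and the labels do not tie a replicate number to a day or a culture. In bulk libraries, fewer cells transcribing a gene and less transcription per cell cannot be told apart.

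In brief, gene body signal of these genes was lower after 90 min of hypoxia in all but 3 of 40 within-replicate comparisons, with median log2 fold changes of -0.46 in WT and -0.49 in HIF1A-/- cells. The exceptions were both WT pairs of P4HB, which encodes protein disulfide isomerase, and the second WT pair of PDIA6. All 4 pairs were lower for 8 of the 10 genes, against 21% of all gene bodies. The 40 comparisons come from the same 8 libraries and are not independent. Without a replicate block none of the 10 genes passed a false discovery rate of 10% in either genotype. With the block, edgeR called HSPA5, CALR, PDIA3, PDIA4 and HYOU1 lower in WT cells. In HIF1A-/- cells with the block, edgeR called 0 of the 10 and DESeq2 called 5. For none of the genes did the difference in response between genotypes pass the test in edgeR. With the block 2 had an unadjusted p under 0.05, with edgeR adjusted p of 0.897 and 0.898.

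HSPA5 encodes BiP, the Hsp70 chaperone of the ER that also holds the stress sensors inactive (chromosome 9, gene body 127997126 to 128002665, minus strand). Its gene body signal in WT replicates 1 and 2 was 119.5 and 77.0 CPM under normoxia against 80.0 and 48.9 CPM under hypoxia, and all values below keep this order of replicates. The HIF1A-/- libraries had 104 and 96.5 CPM under normoxia against 72.2 and 56.3 CPM under hypoxia. The WT groups overlapped because replicate 1 was the higher library at both oxygen levels, whereas both hypoxic HIF1A-/- libraries lay below both normoxic ones. The log2 fold change was -0.61 (SE 0.28) in WT cells and -0.64 (SE 0.28) in HIF1A-/- cells, with edgeR adjusted p of 0.897 and 1. With the replicate block the WT value was -0.61 (SE 0.14, edgeR adjusted p = 0.0744) and the HIF1A-/- value was -0.66 (SE 0.14, edgeR adjusted p = 0.223).

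HYOU1 encodes a large Hsp70 relative that serves BiP as a nucleotide exchange factor (chromosome 11, gene body 118914895 to 118926956, minus strand). WT libraries went from 70.0 and 46.3 CPM to 47.2 and 22.2 CPM with hypoxia. HIF1A-/- libraries went from 83.3 and 52.0 CPM to 60.5 and 35.6 CPM. Each hypoxic library was below the normoxic library of its number, and the groups overlapped in both genotypes. The WT log2 fold change was the most negative of the 10, at -0.75 (SE 0.42, edgeR adjusted p = 0.897), and with the block -0.80 (SE 0.13, edgeR adjusted p = 0.0198). In HIF1A-/- cells the change with the block was -0.50 (SE 0.13, edgeR adjusted p = 0.257).

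SDF2L1 encodes an ER-resident partner of the BiP co-chaperone DNAJB11 (chromosome 22, gene body 21997542 to 21998588, plus strand). It had the fewest reads of the 10 genes, with 97 to 322 counts per library in a region of 1047 bp. WT levels were 9.22 and 7.61 CPM without hypoxia and 7.87 and 4.02 CPM with it. HIF1A-/- levels were 15.4 and 8.05 CPM without hypoxia and 9.41 and 6.05 CPM with it. Both pairs were lower in hypoxia in each genotype, and the groups overlapped. The log2 fold changes were -0.51 (SE 0.43) in WT cells and -0.60 (SE 0.42) in HIF1A-/- cells, and neither passed with or without the block.

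HSP90B1 encodes GRP94, the Hsp90 chaperone of the ER (chromosome 12, gene body 104325112 to 104341708, plus strand). Normoxic WT libraries had 201 and 152 CPM, and hypoxic WT libraries 151 and 130.0 CPM. Normoxic HIF1A-/- libraries had 215 and 177 CPM, and hypoxic HIF1A-/- libraries 147 and 109.6 CPM. The hypoxic libraries lay below the normoxic ones in both genotypes, by a narrow margin in WT cells. The log2 fold change was -0.33 (SE 0.20) in WT cells and -0.61 (SE 0.20, edgeR adjusted p = 1) in HIF1A-/- cells. With the block the HIF1A-/- value was -0.62 (SE 0.09) with an edgeR adjusted p of 0.114, and the WT value was -0.32 (SE 0.09) with an adjusted p of 0.106.

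CALR and CANX encode calreticulin and calnexin, lectin chaperones that retain glycoproteins until they are folded. CALR lies on chromosome 19 (13050414 to 13055304, plus strand). Its WT signal was 94.4 and 54.2 CPM at 21% O2 and 66.1 and 35.6 CPM at 1% O2, and its HIF1A-/- signal 89.6 and 69.1 CPM at 21% O2 and 72.8 and 56.0 CPM at 1% O2. The spread between WT replicates exceeded the shift with oxygen, and the groups overlapped in both genotypes. The WT log2 fold change was -0.55 (SE 0.35) without the block and -0.56 (SE 0.14, edgeR adjusted p = 0.0921) with it, against -0.30 (SE 0.14, edgeR adjusted p = 0.55) in HIF1A-/- cells with the block. CANX lies on chromosome 5 (179126930 to 179158642, plus strand). Its WT signal was 312 and 253 CPM at 21% O2 and 268 and 219 CPM at 1% O2, and its HIF1A-/- signal 305 and 234 CPM at 21% O2 and 267 and 207 CPM at 1% O2. The changes of CANX were small but of one direction in all 4 pairs, with within-pair log2 ratios from -0.22 to -0.17. They did not pass in either genotype, with log2 fold changes of -0.22 (SE 0.20) in WT cells and -0.18 (SE 0.20) in HIF1A-/- cells.

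**Figure D1:**
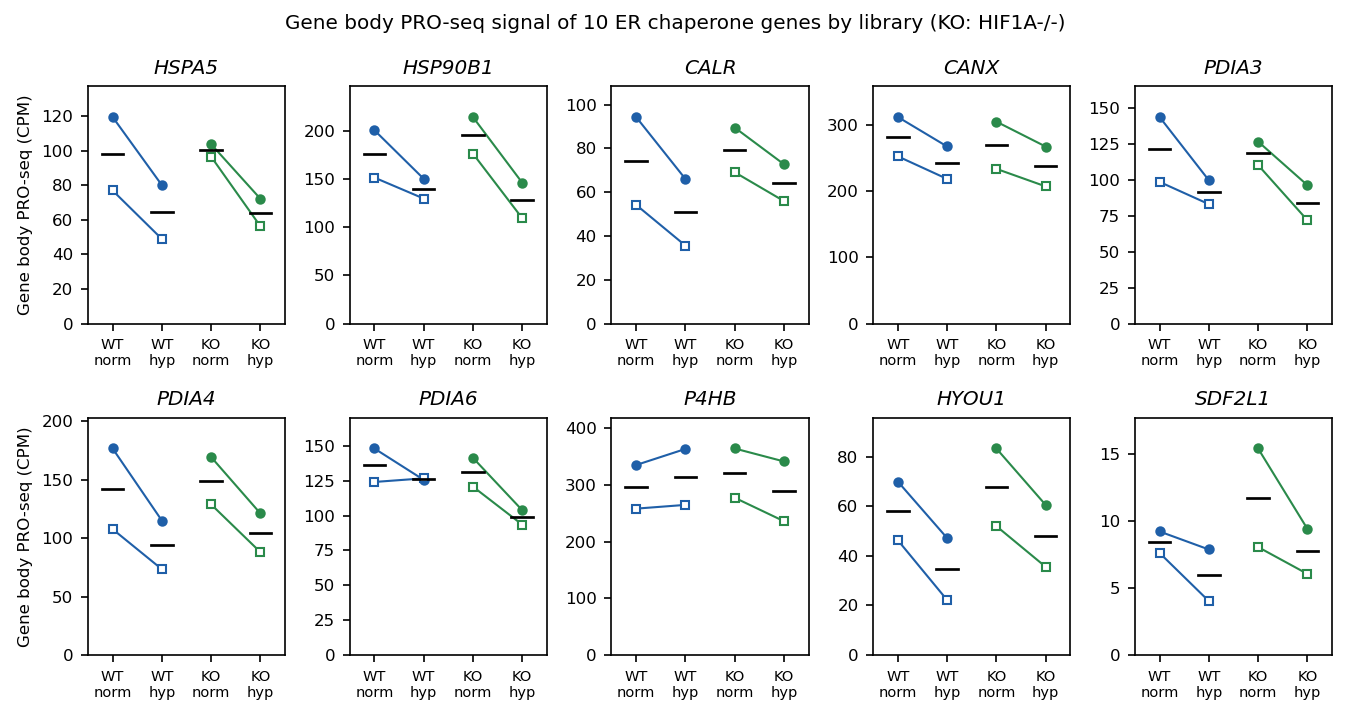
Gene body PRO-seq signal in CPM (vertical axes, each from 0) of the 10 genes in WT (blue) and HIF1A-/- (green, labelled KO) cells in normoxia (norm) and hypoxia (hyp). Filled circles are replicate 1, open squares replicate 2, lines join libraries of the same number and black bars are means of 2 libraries; replicate 1 lies above replicate 2 in 39 of 40 gene and group pairs, and lines slope down in hypoxia except for P4HB in WT cells and replicate 2 of PDIA6 in WT cells.

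Among the disulfide isomerases, PDIA3 encodes ERp57, which acts on glycoproteins held by the lectin chaperones (chromosome 15, gene body 44039590 to 44064804, plus strand). WT libraries measured 144 and 98.8 CPM before and 99.9 and 83.3 CPM after hypoxia. HIF1A-/- libraries measured 127 and 110.5 CPM before and 96.5 and 72.1 CPM after it. The hypoxic libraries were separate from the normoxic ones in HIF1A-/- cells, and overlapped them narrowly in WT cells. The log2 fold change was -0.41 (SE 0.22) in WT cells and -0.49 (SE 0.22) in HIF1A-/- cells, and with the block the WT value was -0.39 (SE 0.10, edgeR adjusted p = 0.0966). A processed pseudogene, PDIA3P1, had 3.17 to 5.63 CPM, and reads from the exons of PDIA3 could be divided between the pair.

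PDIA4 encodes a disulfide isomerase with several thioredoxin-like domains (chromosome 7, gene body 148700153 to 148724781, minus strand). WT signal was 177 and 108 CPM under normoxia, against 115 and 73.3 CPM under hypoxia. HIF1A-/- signal was 169 and 129 CPM under normoxia, against 121 and 87.9 CPM under hypoxia. The groups overlapped in WT cells and were separate in HIF1A-/- cells, and the within-pair log2 ratios lay between -0.62 and -0.48 in all 4 pairs. With the block the change was -0.59 (SE 0.10, edgeR adjusted p = 0.0276) in WT cells and -0.52 (SE 0.10, edgeR adjusted p = 0.191) in HIF1A-/- cells.

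PDIA6 encodes a disulfide isomerase that associates with BiP (chromosome 2, gene body 10923516 to 10977102, minus strand). Its 4 WT libraries had 148 and 124 CPM under normoxia and 126 and 127 CPM under hypoxia. Its 4 HIF1A-/- libraries had 141 and 121 CPM under normoxia and 104 and 93.5 CPM under hypoxia. In WT cells the second pair was not lower, while in HIF1A-/- cells both hypoxic libraries were below the normoxic ones. The log2 fold change was -0.11 (SE 0.14) in WT cells and -0.41 (SE 0.14, edgeR adjusted p = 1) in HIF1A-/- cells. The deposited start of PDIA6 is the far upstream one, at position 10978103, and its TSS region had a count of 0 in all 8 libraries. The other 5 annotated coding starts lie between 10952911 and 10972611, inside the deposited gene body region, so paused polymerase at those starts is part of the gene body count. That region also overlaps ATP6V1C2 on the opposite strand over 1721 bp.

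P4HB encodes protein disulfide isomerase, which is also a subunit of collagen prolyl 4-hydroxylase (chromosome 17, gene body 79801033 to 79817543, minus strand). WT libraries had 335 and 258 CPM at 21% O2 and 364 and 265 CPM at 1% O2. HIF1A-/- libraries had 364 and 278 CPM at 21% O2 and 342 and 236 CPM at 1% O2. Both WT pairs were slightly higher in hypoxia and both HIF1A-/- pairs slightly lower, and the groups overlapped. The log2 fold change was 0.08 (95% interval -0.48 to 0.65) in WT cells and -0.15 (95% interval -0.72 to 0.41) in HIF1A-/- cells, and neither passed.

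Of the 10 genes, 0 passed in WT cells without the block, where 0% of the 16686 gene bodies tested were called lower and 0.431% were called higher by edgeR, and 0 of the 10 had an unadjusted p under 0.05. With the block 5 of the 10 were called lower in WT cells against 1.77% of all gene bodies, and none was called higher against 3.73%. DESeq2 made 0 calls among the 10 without the block and 5 with it, of the same 5 genes. With the block it called 2.47% of the 14421 gene bodies given an adjusted p lower. The number of WT calls with the block fell whichever single library was left out, the HIF1A-/- libraries included. There was 1 call without WT normoxia replicate 1 (HYOU1) and 1 without WT normoxia replicate 2 (PDIA4). Calls numbered 2 without WT hypoxia replicate 1 and 0 without WT hypoxia replicate 2. They numbered 4 without either HIF1A-/- normoxia library and 2 without either HIF1A-/- hypoxia library. The shares of all gene bodies called in these fits without 1 library are not given. Of the 10 genes 0 were called in HIF1A-/- cells with or without the block, where 0.00599% of gene bodies were called lower and 0.03% higher with it and 0% in either direction without it. There, 2 of the 10 had an unadjusted edgeR p under 0.05 without the block (1.03% of all gene bodies were lower at that p) and 8 with it (4.11%). DESeq2 called 0 of the 10 in HIF1A-/- cells without the block and 5 with it, HSPA5, HSP90B1, PDIA3, PDIA4 and HYOU1. With the block it called 0.711% of the 13774 gene bodies given an adjusted p lower.

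The direction was shared more widely than the calls. The median log2 fold change of the 10 genes was -0.46 in WT cells and -0.49 in HIF1A-/- cells, beside -0.02 and 0.00 for all gene bodies tested. Estimates were negative for 9 of the 10 genes in WT cells and for 10 of 10 in HIF1A-/- cells. Both replicate pairs were lower in hypoxia for 8 of 10 genes in WT cells (37.9% of all gene bodies) and for 10 of 10 in HIF1A-/- cells (34.4%). All 4 pairs were lower for 8 of 10 genes, the exceptions being P4HB and PDIA6, against 21% of all gene bodies. Both hypoxic libraries lay below both normoxic ones for 1 of 10 genes in WT cells (HSP90B1, background 19.4%) and for 5 of 10 in HIF1A-/- cells (HSPA5, HSP90B1, PDIA3, PDIA4 and PDIA6, background 11.3%).

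**Figure D2:**
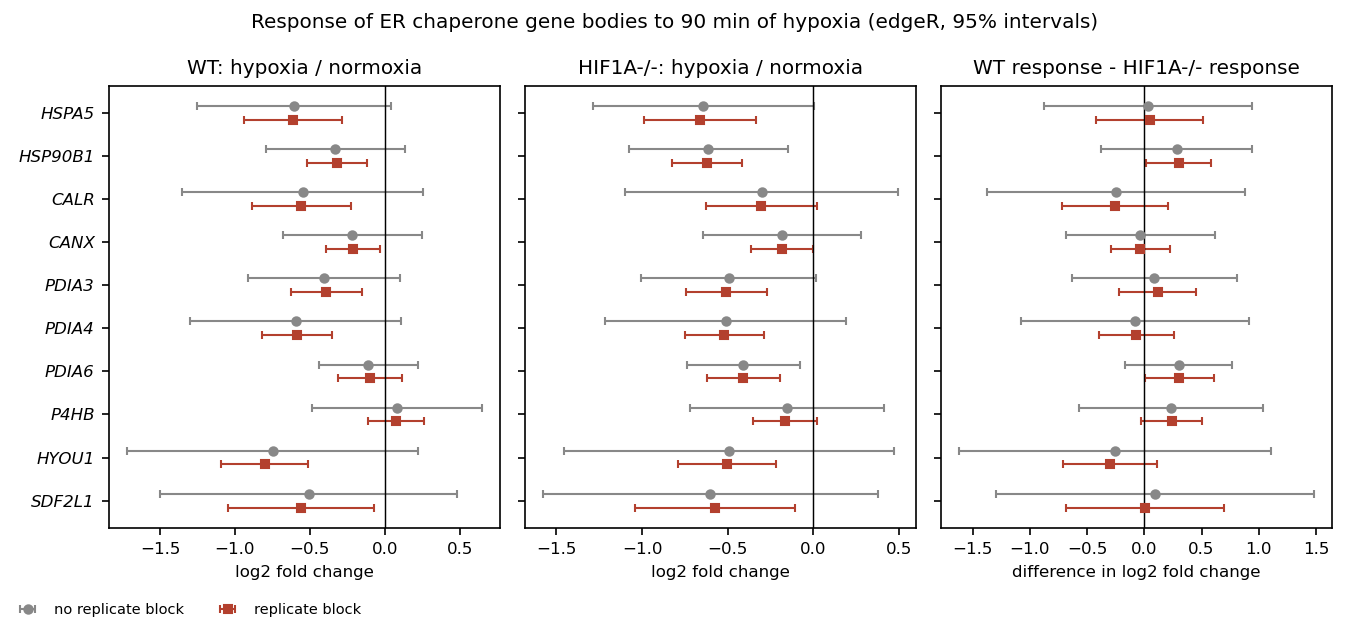
Log2 fold changes in gene body signal (horizontal axes) for the 10 genes, with 95% intervals, from edgeR without (grey circles) and with (red squares) the replicate number as a block. Left and middle, hypoxia over normoxia in WT and HIF1A-/- cells; right, the WT response minus the HIF1A-/- response; estimates hardly move between the fits while the intervals narrow, and 9 of 10 WT and 10 of 10 HIF1A-/- estimates lie below 0.

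The replicates differed by about as much as the oxygen levels did for these genes. Replicate 2 was below replicate 1 in all 4 groups for 9 of 10 genes, PDIA6 being the exception, against 25.8% of all gene bodies. The fitted log2 difference of replicate 2 from replicate 1 had a median of -0.45 over the 10 genes (range -0.78 to -0.16) and of 0.01 over all gene bodies. Adding it lowered the common dispersion of the gene body fit from 0.0376 to 0.011. What separated the replicates is not given in the labels, and its part in the result was not tested beyond the block.

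The response did not differ detectably between genotypes. The WT response minus the HIF1A-/- response had a median of 0.06 over the 10 genes, with a range from -0.25 (HYOU1) to 0.30 (PDIA6), and edgeR called 0 of 10 with or without the block, where 0.0539% of gene bodies were called higher without it, 0.384% with it and 0% lower in either fit. With the block 2 of 10 had an unadjusted edgeR p under 0.05, HSP90B1 (0.30, SE 0.12) and PDIA6 (0.31, SE 0.13), with adjusted p of 0.897 and 0.898. The share of all gene bodies at that unadjusted p is not given. The intervals bound the difference only loosely. For HSPA5 the difference was 0.05 with a 95% interval from -0.42 to 0.51 with the block, for PDIA4 it was -0.07 (-0.40 to 0.26), and for CANX it was -0.03 (-0.29 to 0.22).

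Averaging the responses of both genotypes, a comparison chosen after seeing the data, gave a median of -0.46 over the 10 genes. Without the block 0 of 10 were called, where 0% of gene bodies were called lower. In that fit 5 of the 10 had an unadjusted edgeR p under 0.05, and the share of all gene bodies at that p is not given. With the block 9 of 10 were called lower, all but P4HB, against 4.12% of all gene bodies. The average log2 changes with the block were -0.65 for HYOU1 (SE 0.09, edgeR adjusted p = 0.01), -0.64 for HSPA5 (SE 0.10), -0.57 for SDF2L1 (SE 0.15) and -0.55 for PDIA4 (SE 0.07). They were -0.47 for HSP90B1 (SE 0.06), -0.45 for PDIA3 (SE 0.07), -0.43 for CALR (SE 0.10), -0.25 for PDIA6 (SE 0.07) and -0.20 for CANX (SE 0.06). P4HB was at -0.04 (SE 0.06, edgeR adjusted p = 0.678). Leaving out 1 library at a time in this fit left between 3 and 7 of 10 called, with 3 left without HIF1A-/- hypoxia replicate 1 and 5 without WT normoxia replicate 2. The shares of all gene bodies called without 1 library are not given.

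The levels of the genes were also set side by side between genotypes at the same oxygen level. In normoxia 0 of 10 genes passed in edgeR with or without the block, and 0 had an unadjusted p under 0.05, where 0.725% of gene bodies passed as higher and 1.05% as lower in HIF1A-/- cells without it, and 3.93% and 6.39% with it. No normoxic groups of the 2 genotypes were separate for any of the genes (background 32.3%). In hypoxia without the block 0 of 10 passed, where the shares of all gene bodies that passed were 1.47% (higher) and 2.79% (lower). Of the 10, 1 had an unadjusted edgeR p under 0.05 in that fit, and the background at that p is not given. With the block 3 of 10 were called, against 13.1% of gene bodies called higher and 15.1% lower. The share of the 10 genes called with the block was thus near that of all gene bodies. The 3 were HYOU1 (0.51, SE 0.13, edgeR adjusted p = 0.0286) and CALR (0.39, SE 0.14, edgeR adjusted p = 0.0944), higher in hypoxic HIF1A-/- cells, and PDIA6, lower there (-0.36, SE 0.09, edgeR adjusted p = 0.0325). PDIA6 was the only one of the 10 whose hypoxic groups did not overlap, where 45.5% of all gene bodies did not. These comparisons share their libraries with the responses above.

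At the TSS region, which covers 50 bases before to 500 bases after the start and mostly holds paused polymerase, 9 of the 10 genes could be tested, since PDIA6 had no counts. For HSPA5 the WT TSS signal was 512 and 393 CPM under normoxia against 408 and 342 CPM under hypoxia, and the HIF1A-/- TSS signal 480.5 and 454 CPM against 339 and 347 CPM. All 4 of its pairs were lower in hypoxia, as they were for 5 of 9 genes (10.1% of all TSS regions). Both pairs were lower for 7 of 9 genes in WT cells (30.4%) and for 5 of 9 in HIF1A-/- cells (26.6%). The median log2 fold change of the 9 genes was -0.27 in WT cells and -0.18 in HIF1A-/- cells, beside -0.02 and -0.01 for the 15212 TSS regions tested. Estimates were negative for 8 of 9 genes in each genotype, and edgeR called 0 of 9 with or without the block. At an unadjusted p under 0.05 there were 0 of 9 in WT and 2 of 9 in HIF1A-/- cells without the block, and 4 and 2 with it. The shares of all TSS regions at that p are not given. In WT cells 0% of TSS regions were called lower and 0.046% higher without the block, and 0.217% lower and 0.789% higher with it, and in HIF1A-/- cells at most 0.00657% were called in either direction. In the average of both genotypes, HSPA5 was the 1 gene called with the block (-0.36, SE 0.09, edgeR adjusted p = 0.0983), against 0.224% of TSS regions called lower.

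PDIA3 differed between its regions. Its WT TSS region had 227 and 235 CPM under normoxia against 227 and 236 CPM under hypoxia, and its HIF1A-/- TSS region 245 and 260.0 CPM against 247 and 246 CPM. The TSS values shifted little while the gene body signal was lower in all 4 pairs. The log2 fold changes at the TSS region were 0.00 (SE 0.13) in WT cells and -0.04 (SE 0.13) in HIF1A-/- cells. SDF2L1 was lower at both regions in WT cells, with -0.59 (SE 0.27) at the TSS region and -0.51 at the gene body. The WT estimate for CANX was -0.37 (SE 0.22) at the TSS region and -0.22 (SE 0.20) over the gene body.

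**Figure D3:**
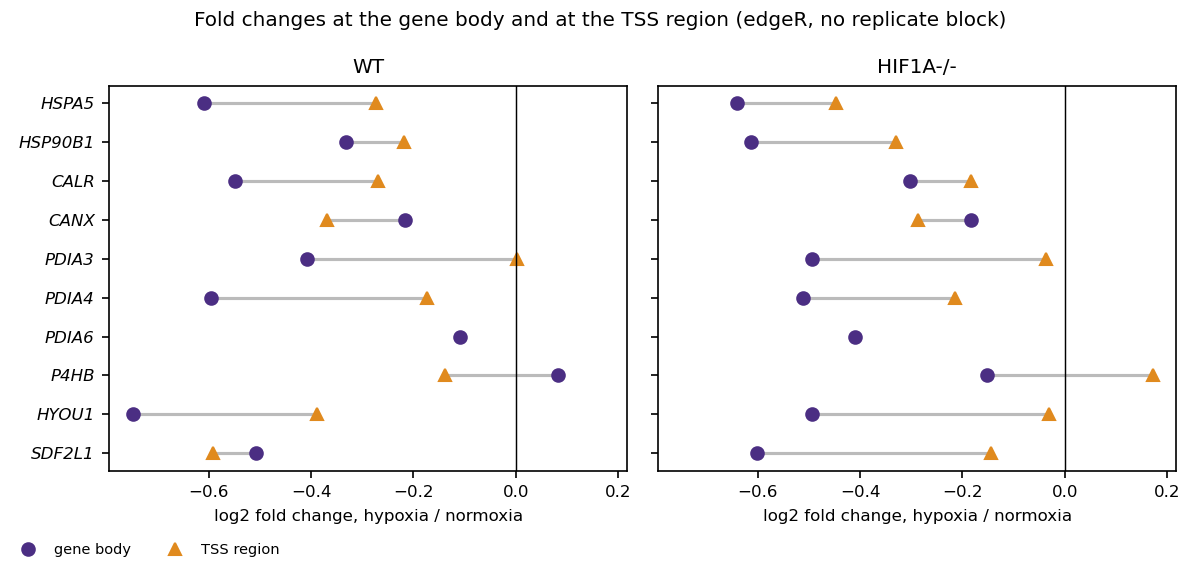
Log2 fold change, hypoxia over normoxia, at the gene body (purple circles) and at the TSS region (orange triangles) for each gene, in WT (left) and HIF1A-/- (right) cells, from edgeR without a block; grey lines join the regions of a gene. For HSPA5, HSP90B1, CALR, PDIA3, PDIA4 and HYOU1 the TSS estimate is nearer 0 than the gene body estimate in both genotypes, and PDIA6 has no TSS value because its TSS region had no counts.

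The pausing index, the density of reads per base at the TSS region over that in the gene body, was compared as the ratio of the regions within each library. For PDIA3 the WT index was 72.2 and 109 under normoxia against 104 and 130.0 under hypoxia, and the HIF1A-/- index 88.5 and 108 against 117 and 157. Its pausing index was higher in hypoxia in every pair and the groups overlapped in WT cells. For HSPA5 the WT index was 43.1 and 51.3 under normoxia against 51.2 and 70.3 under hypoxia. For P4HB both WT pairs were lower, with 21.8 and 24.0 under normoxia against 20.6 and 18.1 under hypoxia, and both HIF1A-/- pairs higher, with 15.0 and 24.0 against 21.9 and 26.4. For CANX all 4 pairs were lower, with 23.9 and 22.001 against 23.1 and 17.9 in WT cells and 19.2 and 24.7 against 18.1 and 22.6 in HIF1A-/- cells. The median log2 change in the index was 0.24 in WT cells and 0.29 in HIF1A-/- cells over 9 genes, and edgeR called 0 of 9 with or without the block, with 0 at an unadjusted p under 0.05 without it and 2 in each genotype with it. The shares of all genes at that p are not given. In WT cells 0.186% of the 14494 genes were called lower and 0.0069% higher without the block, and 0.497% lower and 0.0483% higher with it, while in HIF1A-/- cells 0% were called. In the average of both genotypes with the block, PDIA3 was at 0.41 (SE 0.11, edgeR adjusted p = 0.171), PDIA4 at 0.34 and HYOU1 at 0.40, and 0 of 9 passed against 0.159% of genes called higher.

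Between genes, levels were compared per length, as the CPM of the gene body divided by its length in kilobases (RPKM). P4HB ranked first with a mean of 18.5 RPKM over 8 libraries (range 14.3 to 22.1), followed by HSPA5 at 14.8 (8.83 to 21.6) and CALR at 13.7 (7.29 to 19.3). HSP90B1 followed at 9.65, CANX at 8.14 and SDF2L1 at 8.08. PDIA4 was at 4.97, HYOU1 at 4.32, PDIA3 at 4.12 and PDIA6 at 2.29 RPKM. Neighbours in this order were often not distinct. P4HB was above HSPA5 in 6 of 8 libraries, HSPA5 above CALR in 6, CANX above SDF2L1 in 5 and HYOU1 above PDIA3 in 4. The order was the same in 8 of 8 libraries for HSP90B1 over CANX, SDF2L1 over PDIA4 and PDIA3 over PDIA6. The level of PDIA6 per length is that of a region beginning at the far upstream start, whose TSS region had no counts. Its last place in this order therefore depends on the region deposited.

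**Figure D4:**
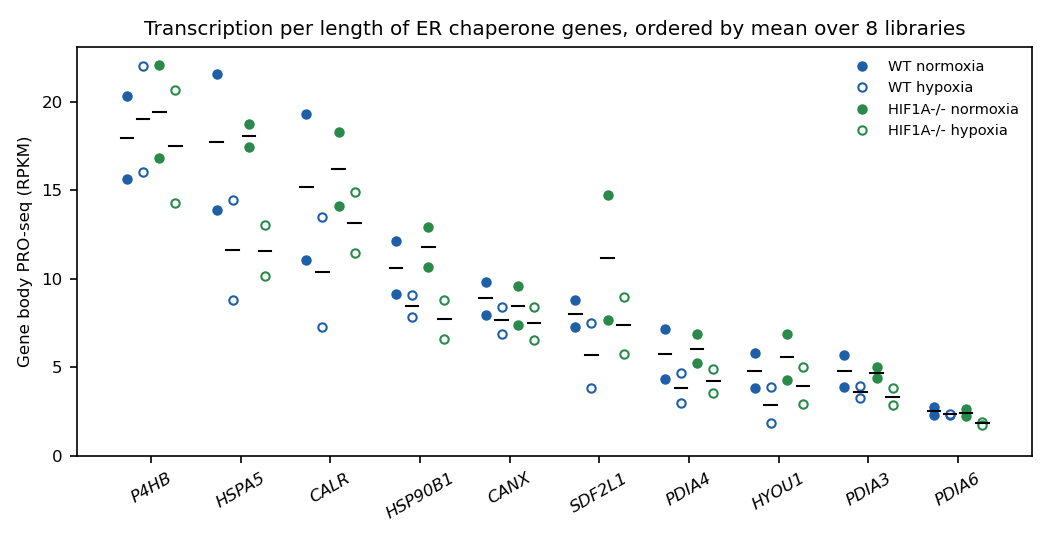
Gene body PRO-seq signal per length (vertical axis, RPKM, from 0) of the 10 genes, ordered by their mean over 8 libraries. Filled circles are normoxic and open circles hypoxic libraries of WT (blue) and HIF1A-/- (green) cells and black bars are means of 2 libraries; P4HB lies highest and PDIA6, over a region from its far upstream start, lowest, and the ranges of neighbours such as P4HB (14.3 to 22.1) and HSPA5 (8.83 to 21.6) overlap.

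The 10 genes varied together over the libraries. As a description over 8 libraries that share the replicate and oxygen differences above, the Pearson correlation of the log2 CPM of each gene with the mean profile of the others was from 0.853 (SDF2L1) to 0.975 (PDIA4) for 8 genes, and lower for P4HB (0.742) and PDIA6 (0.624). The 5 other gene bodies most like the mean profile of the 10 were HSPE1-MOB4 (r = 0.995), GORAB (0.994), TCP1 (0.993), BLMH (0.993) and MRPL18 (0.991). TCP1 encodes a subunit of the cytosolic chaperonin, and HSPE1-MOB4 is a readthrough gene that includes the mitochondrial chaperonin gene HSPE1. Hypoxic libraries of TCP1 had 81.7 and 51.7 CPM in WT cells, below 114 and 79.1 CPM in the normoxic ones of the same numbers.

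Other genes of the pathway were described from lists of ER folding factors, ER quality control, sensors and factors of the unfolded protein response (UPR), and the integrated stress response. Of the 39 of 42 other ER folding genes that could be tested, 28 had negative estimates in each genotype, with medians of -0.14 in WT and -0.11 in HIF1A-/- cells. Here and below, the share of all gene bodies with a negative estimate is not given. QSOX1, a secreted-pathway sulfhydryl oxidase, was the 1 gene of this list called without the block, and it rose in WT cells, where 0.431% of all gene bodies were called higher. Its normoxic WT libraries had 50.2 and 52.9 CPM and its hypoxic ones 136 and 159 CPM, while the HIF1A-/- libraries lay between 46.7 and 53.1 CPM. The log2 fold change of QSOX1 was 1.52 (SE 0.14, edgeR adjusted p = 0.00761) in WT cells and 0.07 (SE 0.14) in HIF1A-/- cells, and the difference of these responses was 1.44 (edgeR adjusted p = 0.119, and 0.00513 with the block).

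ERO1A, the oxidase that recharges protein disulfide isomerase, had 112 and 114 CPM in WT normoxia and 192 and 299.7 CPM after WT hypoxia. Its HIF1A-/- libraries lay between 94.2 and 107 CPM. The WT change of ERO1A was 1.12 (SE 0.20, edgeR adjusted p = 0.112) without the block and 1.11 (SE 0.18, edgeR adjusted p = 0.0206) with it. With the block 1.77% of all gene bodies were called lower and 3.73% higher in WT cells. In that fit 4 further ER folding genes were called lower. They were CRELD2 (-1.01, SE 0.18), an ER stress-inducible disulfide isomerase, PPIB (-0.56, SE 0.09), a prolyl isomerase, MANF (-0.58, SE 0.14), a secreted BiP cofactor, and DNAJC3 (-0.36, SE 0.09), a BiP co-chaperone. CRELD2 had 22.9 and 15.7 CPM in normoxic and 13.6 and 6.35 CPM in hypoxic WT libraries. In HIF1A-/- cells 0 genes of this list were called by edgeR, with 10 lower at an unadjusted p under 0.05 with the block, against 4.11% of all gene bodies.

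Among the UPR sensors and factors, 8 of 12 had negative estimates in each genotype, with medians of -0.10 in WT and -0.05 in HIF1A-/- cells. XBP1, which encodes a UPR transcription factor activated by splicing, had 57.0 and 48.4 CPM in normoxic and 41.6 and 35.4 CPM in hypoxic WT libraries. Its WT change was -0.45 (SE 0.10, edgeR adjusted p = 0.065) with the block and was not called without it. DDIT3, a proapoptotic factor of the stress response, was at -0.21 (SE 0.29) in WT and -0.16 (SE 0.29) in HIF1A-/- cells. ATF4, the effector of the integrated stress response, was at -0.15 (SE 0.19) and 0.01 (SE 0.19). Of 13 of 14 integrated stress response genes tested, 10 in WT and 7 in HIF1A-/- cells had negative estimates and 0 were called by edgeR in either fit, with 3 at an unadjusted p under 0.05 in WT cells with the block. The share of all gene bodies at that p in WT cells is not given.

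ER quality control genes had negative estimates for 15 of 18 genes in WT and 17 of 18 in HIF1A-/- cells, with medians of -0.20 and -0.12 and 0 called by edgeR in either fit, with 6 lower and 1 higher in WT cells at an unadjusted p under 0.05 with the block. HERPUD1, a component of ER-associated degradation, was at -0.52 (SE 0.25) and -0.64 (SE 0.25). DNAJB9, a BiP co-chaperone, was at 0.18 (SE 0.17) in WT and -0.40 (SE 0.17) in HIF1A-/- cells, and the difference did not pass (0.58, SE 0.24). All 18 cytosolic and mitochondrial chaperone genes tested had negative estimates in both genotypes, with medians of -0.65 and -0.55. Of these 11 were called lower by edgeR with the block in WT cells, against 1.77% of all gene bodies, and 0 without it, where 5 had an unadjusted p under 0.05. In HIF1A-/- cells edgeR called 0 of the 18 in either fit, with 3 at an unadjusted p under 0.05 without the block and 14 with it. Of all gene bodies, 1.03% and 4.11% were lower at that p in HIF1A-/- cells. The shares at that p in WT cells are not given.

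**Figure D5:**
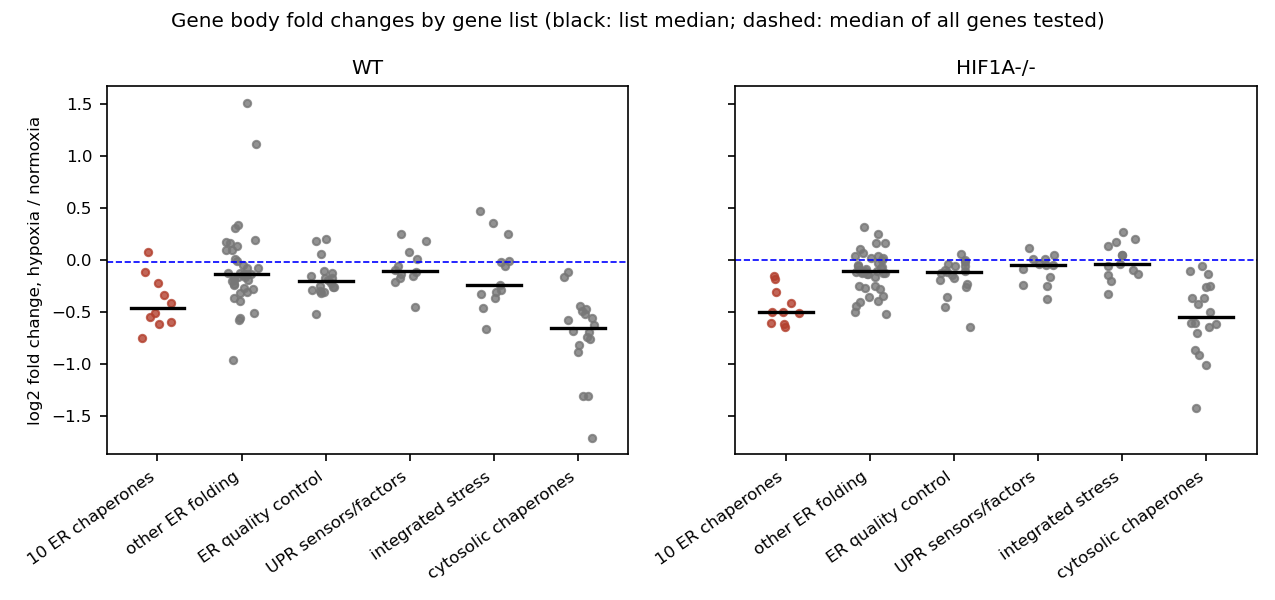
Log2 fold changes in gene body signal (vertical axis), hypoxia over normoxia without a block, for the 10 ER chaperones (red) and for the genes tested in 5 other lists (grey), in WT (left) and HIF1A-/- (right) cells; black bars are list medians and the dashed line the median of all gene bodies tested. The 10 ER chaperones have medians of -0.46 and -0.49 and the cytosolic chaperones -0.65 and -0.55, and the highest points in WT cells are QSOX1 (1.52) and ERO1A (1.12).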

How the data were processed

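PRO-seq was done on 8 HCT116 libraries, 2 in each of 4 groups taken from the sample labels. The authors aligned reads with HISAT2 2.1.0 to GRCh37, kept mapping quality above 10 with SAMtools 1.5, and counted reads with featureCounts (Subread 1.6.2) in 1 TSS region (551 bp) and 1 gene body (from base 1001 to the gene end) per gene, after removing transcripts under 1500 bp. The deposited values are raw counts per gene and library. Alignment was unspliced, so reads from processed pseudogenes and exons can be exchanged.

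Gene bodies and TSS regions with more than 0.5 CPM in at least 2 libraries were fitted over all 8 libraries with edgeR 4.0.16 in R 4.3.3 (TMM, quasi-likelihood, Benjamini-Hochberg, false discovery rate 10%). The edgeR p-values were adjusted over every region tested. DESeq2 gave an adjusted p for fewer gene bodies, with the block 14421 for the WT response and 13774 for the HIF1A-/- response. The pausing index was tested in 1 fit over both regions. RPKM used the deposited region lengths.

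Named genes were the 10 chaperones in both tables, genes of the 4 pathway lists called without the block or otherwise up to 4 per list with the smallest p, a fixed set (CRELD2, MANF, HERPUD1, DNAJB9, ERO1A, XBP1, ATF4, DDIT3), and the 5 gene bodies most like the mean profile. The 10 genes are picked by symbol alone, but they and the lists were proposed with earlier results of these data known. Replicate numbers come from the sample titles. They were taken to pair libraries because all 6 between-group correlations of deviations from the group mean were above 0.1 (0.484 to 0.790 at gene bodies, 0.216 to 0.519 at TSS regions), although no label ties a number to a day or culture. Alternatives were the replicate block, DESeq2 1.42.0, library totals in place of TMM, no filter, fits of 2 groups and leaving out each library. Start-site sequences were read from the GRCh37 genome around the deposited starts, and 9 of the 10 genes were also found in the RefSeq promoter table.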

Additional observations from a re-analysis of the deposited data

How the results depend on the processing

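With the replicate block, edgeR called 5 of the 10 gene bodies in WT cells, 3 between genotypes in hypoxia and 9 in the average of both genotypes, and 1 TSS region (HSPA5) in that average, where the fits without it called 0. DESeq2 with the block called 5 in WT cells, 5 in HIF1A-/- cells, 3 between genotypes in hypoxia, 8 in the average and 1 TSS region, and 0 without the block. Its shares over all gene bodies are given only for the WT and HIF1A-/- responses. The block changed no other count of calls among the 10 genes. Fits chosen after seeing the data, with the block and without 1 library, called 0 to 4 of 10 in WT cells and 3 to 7 in the average (6 in 5 of the 8 such fits), and were not run for the comparisons between genotypes. Their shares over all gene bodies are not given. Library totals in place of TMM, no filter, fits of 2 groups and leaving out 1 library without the block called 0 in each response. The number of the 10 genes lower in hypoxia was 8 to 10 in each genotype when 1 library was left out without the block. Of 220 estimates under alternatives, 4 had the opposite sign in WT cells and 3 in HIF1A-/- cells. Why the calls move with the block was shown only by the drop in dispersion given above, and the cause of the difference between replicates was not tested. Precision is limited by 2 libraries per group and, for SDF2L1 with at most 322 counts in a library, by depth.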
